A study of Mus musculus with 7 samples.

Results

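Hcn2, Hcn4, Scn4b, Scn4a, Gja1, Gja5 and Gjc1 are 7 genes whose products set and pass on the electrical signal of the heart, and they were followed here in mouse hearts that had lost Akt1 and Akt2 in cardiomyocytes. They were taken by name, and all probes whose accession maps to them were used, 10 of the 56605 probes on the array. All 7 genes and all 10 probes passed the detection filter, which left 23678 of 45616 genes and transcripts, counting probes without a symbol under their own ID. RNA came from the heart apex of 7 male C57Bl/6 mice, 1 single-colour Agilent array per mouse. The 3 double knockout mice (DKO) were homozygous for loxP-flanked Akt1 (exons 6 and 7) and Akt2 (exons 5 and 6) and heterozygous for MHC-mercremer, a tamoxifen-dependent Cre driven by the alpha myosin heavy chain promoter of cardiomyocytes. The 4 control mice were heterozygous for MHC-mercremer without floxed alleles. Mice of both groups received 500 µg of hydroxytamoxifen daily for 5 days at an age of 3 months, and their hearts were taken 10 days after induction without any other treatment, so the transgene and the drug are common to both groups. Deletion is limited to cardiomyocytes, while the RNA also holds that of every other cell of the apex.

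An HCN channel carries the funny current, an inward current opened by hyperpolarization and tuned by cAMP. HCN4 is the main isoform of the sinus node, and HCN2 is the main one of working myocardium. Voltage-gated sodium channels carry the upstroke of the action potential and consist of a pore-forming alpha subunit with auxiliary beta subunits. Connexins dock between neighbouring cells as gap junctions and let the impulse pass. The apex is working ventricular muscle, whereas the nodes lie elsewhere in the heart.

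The label of the knockout and the tissue were checked first. Akt2 gave 11.64, 11.67 and 11.61 in DKO hearts, against 13.78, 13.70, 13.61 and 13.65 in control hearts, on a log2 scale in which the 75th percentile of every array was set to 9.14. Akt1 gave 14.60 to 14.68 in DKO hearts and 14.40 to 14.55 in control hearts (log2 difference 0.17 ± 0.07, SE; limma, adjusted p = 0.199 over probes), and its other probe gave 0.47 ± 0.16 (adjusted p = 0.139), so neither was lower in DKO. The 3 Akt2 probes fell by unequal amounts, at -2.05, -2.29 and -0.68 (limma, adjusted p = 2.03e-04, 2.95e-04 and 0.0335 over probes). Where the probes lie relative to the deleted exons was not analysed here. Of 10 ventricular cardiomyocyte markers all were measured and 0 passed the test between groups (limma, adjusted p below 0.05; 0 higher and 2 lower at an unadjusted p below 0.05). Of all 23678 genes, 11.6% were higher and 13.9% lower in DKO at that unadjusted threshold, against which this and the later unadjusted counts are to be read. At the adjusted threshold 2.41% were higher and 2.29% lower, against which the counts of called genes are to be read. The scanner software rated 50.9% to 55.7% of an array's probes as well above background, and 0 spots were saturated. Of 10 smooth muscle and pericyte markers 1 rose and 0 fell (Myh11, 0.63 ± 0.14, SE; adjusted p = 0.0487 by limma), with a median log2 difference of 0.34. At an unadjusted p below 0.05, 6 were higher and 1 lower. The lower one was Acta2, the brightest of the list (-0.41 ± 0.14, SE, adjusted p = 0.128 by limma). In 7 the DKO values lay wholly above the control values and in 0 wholly below, against 3117 and 2963 of all 23678 genes. Of 10 fibroblast markers 0 passed (median 0.17; 3 higher and 0 lower at an unadjusted p below 0.05), and of 9 measured immune markers 0 passed (median 0.03; 1 higher and 0 lower), all by limma. Their part in the other results was not tested. The number of arrays limits the precision. A lower signal in such bulk RNA cannot separate fewer cells of a type from less RNA per cell.

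The upstream sequences of both pacemaker channels and of Gja1 are shown because they hold the member that fell, its paralog, and the member measured by the most probes. Each is the 250 bases before the RefSeq start of the gene on GRCm38.p6, plus strand, 5′ to 3′. Hcn4 lies at chr9:58822699-58822948, Hcn2 at chr10:79716384-79716633 and Gja1 at chr10:56377050-56377299. Capitals mark matches on either strand to any of 9 motifs. They are the forkhead motif of FoxO factors, GTAAACA, and the T-box element, AGGTGT. The Nkx2-5 motif was searched as CAAGTG and the GATA motif as AGATAA. The MEF2 core was a CTA followed after any 4 bases by its reverse complement. The AP-1 motif was TGANTCA and the GC box GGGCGG. The CRE core was TGACGT and the TATA box TATAAA.
Hcn4: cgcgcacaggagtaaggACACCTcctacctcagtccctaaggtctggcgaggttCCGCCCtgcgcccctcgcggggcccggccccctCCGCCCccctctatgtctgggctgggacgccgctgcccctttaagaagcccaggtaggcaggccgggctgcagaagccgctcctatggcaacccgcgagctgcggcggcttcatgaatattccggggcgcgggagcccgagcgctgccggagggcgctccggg
Hcn2: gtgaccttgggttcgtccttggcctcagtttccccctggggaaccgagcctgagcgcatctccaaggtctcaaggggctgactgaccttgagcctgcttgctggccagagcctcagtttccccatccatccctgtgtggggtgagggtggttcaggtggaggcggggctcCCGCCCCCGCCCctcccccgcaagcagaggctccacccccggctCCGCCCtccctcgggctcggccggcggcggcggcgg
Gja1: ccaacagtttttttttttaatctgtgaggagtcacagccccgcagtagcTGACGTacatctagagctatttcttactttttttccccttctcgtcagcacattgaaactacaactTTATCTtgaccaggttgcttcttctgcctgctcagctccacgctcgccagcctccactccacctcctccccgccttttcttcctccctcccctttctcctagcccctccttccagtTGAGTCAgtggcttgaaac
The Hcn4 window holds 1 T-box element, at -233 to -228 from the start, and 2 GC boxes, and the Hcn2 window holds 3 GC boxes. Gja1 has 1 AP-1 match at -19 to -13, 1 GATA match and 1 CRE core, and no 2 matches in these windows overlap. The Hcn4 and Hcn2 windows were 71.2% and 70.4% G or C and the Gja1 window was close to even, where the median of all 32851 upstream windows of this length was 52.4%. Of all windows, 11.8% hold the T-box element, 32.7% the GC box, 6.7% the AP-1 motif, 10.0% the GATA motif and 6.5% the CRE core. The forkhead letters are in 3.2% of all windows and in 0 of the 6 windows found for members. These matches describe letters only.

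Hcn4 was the member that fell in DKO hearts, and its paralog Hcn2 was not called. Hcn4 gave 7.22, 7.51 and 7.21 (normalized log2 signal) in DKO hearts, against 7.82, 7.84, 7.86 and 7.90 in control hearts. Every DKO heart lay below every control heart, and the 4 controls lay within a narrow band while DKO replicate 2 was the highest of its group. The means were 7.31 ± 0.17 in DKO (SD, n = 3) and 7.85 ± 0.03 in control hearts (SD, n = 4), a log2 difference of -0.54 ± 0.09 (SE), or 1.45-fold lower (limma, two-sided, adjusted p = 0.0294 over 23678 genes). Of all genes tested, 2.29% were called lower and 2.41% higher in DKO, and in 12.5% the DKO values lay wholly below the control values. Either way, 4.70% of genes were called, and among the members 1 of 7 was. The single Hcn4 probe, A_52_P292344, is dim: its processed signal on a linear scale was 135, 173 and 162 in DKO hearts and 213 to 277 in control hearts. It was well above background on all 7 arrays, for which the dimmest detected probes stood at 4.18 to 4.76 in log2.

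The Hcn4 call was close to the threshold. With 1 array left out it passed in 2 of 7 fits, those without DKO replicate 2 and without control replicate 2 (adjusted p = 0.0327 and 0.0488 by limma), and the adjusted p reached 0.0522 without control replicate 1, 0.0731 without control replicate 3, 0.0893 without control replicate 4, 0.101 without DKO replicate 1 and 0.0896 without DKO replicate 3. The log2 difference stayed between -0.64 and -0.49 in these fits. All arrays shared 1 slide. Within slide row 1 (1 DKO, 3 control arrays) the difference was -0.65, within row 2 (2 DKO, 1 control array) it was -0.47, and with row as a term in limma it was -0.57 with an adjusted p of 0.0721. The plot of Hcn4 by setting shows that the size moved little while the adjusted p crossed 0.05.

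**Figure D1:**
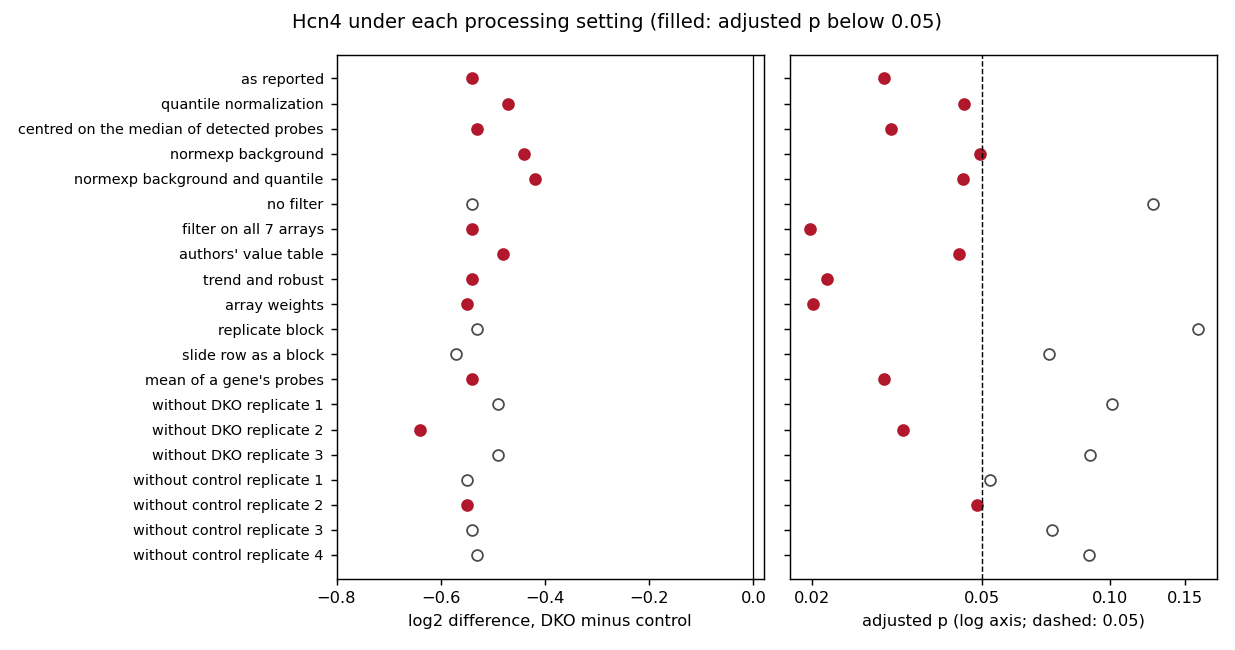
Log2 difference of Hcn4, DKO minus control (left), and its adjusted p on a log axis (right) as reported and under 19 other settings; filled points are below 0.05. The difference lies between -0.64 and -0.42 throughout, whereas the adjusted p lies between 0.0197 and 0.161.

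Hcn2 was bright, at 14.03, 14.16 and 14.03 in DKO hearts and 13.85, 14.39, 14.37 and 14.15 in control hearts. The groups overlap: control replicate 1 was the lowest heart of all, and control replicate 4 lay just below DKO replicate 2. Its log2 difference was -0.12 ± 0.14 (SE, n = 3 and 4; 95% interval -0.45 to 0.22; limma, adjusted p = 0.637), and without control replicate 1 it was -0.23 (adjusted p = 0.212). The interval reaches from a clear fall to a small rise. Set against Hcn2 on the same array, Hcn4 was lower by 0.42 on the log2 scale in DKO than in control hearts (exact permutation test over samples, two-sided, p = 0.0571, the smallest 3 against 4 allows; 0.0857 after Benjamini-Hochberg over 3 such pairs). Since this test cannot pass 0.05 with these samples, it does not settle whether the paralogs differ in response.

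**Figure D2:**
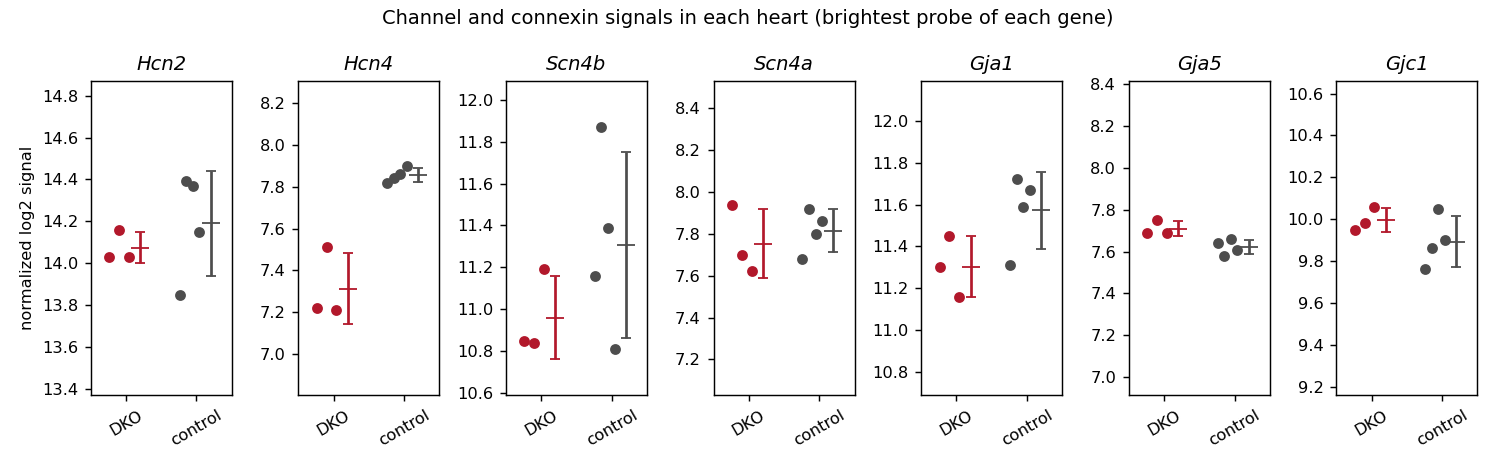
Normalized log2 signal of each member in every heart, DKO (red, n = 3) left of control (grey, n = 4) in each panel, with mean and SD beside the points; every panel spans the same range of log2 units. Hcn4 separates the groups widely, Gja5 by a small step, and the other 5 overlap.

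Of the sodium channel members, neither passed the test. Scn4b, the beta-4 subunit that joins alpha subunits and shapes their gating, gave 10.85, 10.84 and 11.19 in DKO hearts, against 11.16, 11.87, 11.39 and 10.81 in control hearts. The highest and the lowest of these 7 values were both control hearts, and the control SD of 0.44 was the widest among the values that stand for the 7 genes. The log2 difference was -0.35 ± 0.24 (SE; 95% interval -0.91 to 0.22; limma, adjusted p = 0.407). Leaving out control replicate 2 gave -0.16, and leaving out control replicate 4 gave -0.51. Within slide row 1 it was 0.07 and within row 2 it was -1.02, where the only control is that high array.

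Scn4a, the alpha subunit Nav1.4 of skeletal muscle, gave 7.94, 7.70 and 7.62 in DKO hearts and 7.68, 7.92, 7.80 and 7.86 in control hearts. The groups overlap over nearly their whole range (log2 difference -0.06 ± 0.10, SE; 95% interval -0.31 to 0.18; limma, adjusted p = 0.742). Skeletal muscle markers were set beside it: of 13, 7 were measured and 0 passed (0 higher and 1 lower at an unadjusted p below 0.05 in limma). Their summed linear signal was 57400 to 71500 in DKO and 57300 to 67100 in control hearts, most of it from Ckm, which heart muscle shares. The 7 measured markers, Ckm, Acta1, Tnni2, Tnnt3, Tnnc2, Mylpf and Pvalb, were well above background on all 7 arrays. Of the others, Myh4 and Myog were so on 1 array each. The fast myosins Myh1 and Myh2, Actn3 and the regulator Myod1 were not well above background on any array.

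Gja1, Cx43 of ventricular gap junctions, was lower on average by all 3 of its probes without passing the test. The brightest, A_52_P174915, gave 11.30, 11.45 and 11.16 in DKO hearts and 11.31, 11.72, 11.59 and 11.67 in control hearts. Only control replicate 1 lay among the DKO hearts. The log2 difference was -0.27 ± 0.12 (SE; 95% interval -0.56 to 0.02; limma, adjusted p = 0.224). The dimmest probe, A_55_P2741907, separated the groups, with 8.92, 8.79 and 8.73 in DKO hearts against 9.21, 9.01, 9.15 and 9.09 in control hearts (-0.30 ± 0.08, SE; adjusted p = 0.0934 over 30466 probes). The probe between them in brightness, A_55_P2800487, gave -0.15 ± 0.09 (adjusted p = 0.351) with overlapping groups. Of all kept probes 4.40% were called, which divides into 2.07% lower and 2.33% higher in DKO. The groups did not overlap in 25.2% of probes, and in 11.7% the DKO values were the lower ones. Among the 10 member probes 1 was called, that of Hcn4.

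**Figure D3:**
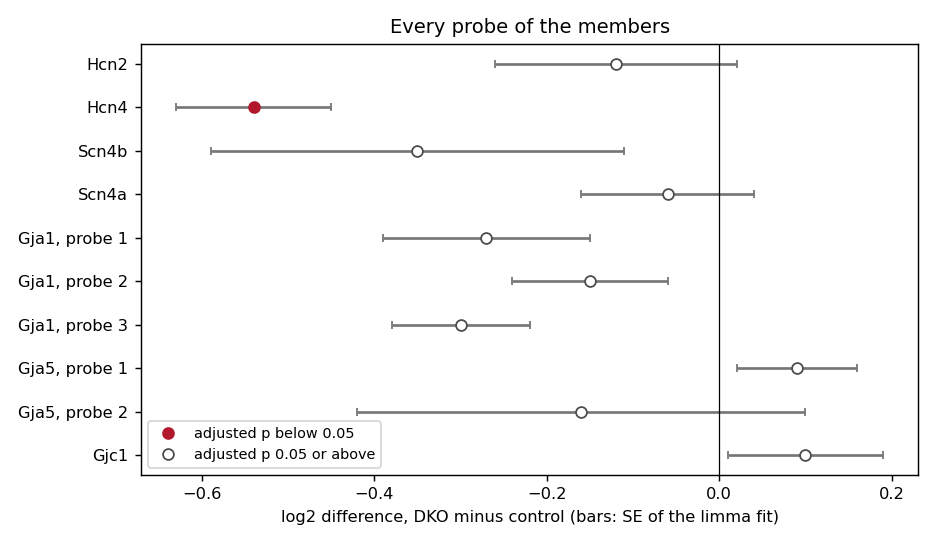
Log2 difference, DKO minus control, for the 10 probes of the members, with the SE of the limma fit; the filled point passed an adjusted p of 0.05. The 3 Gja1 probes lie at -0.27, -0.15 and -0.30, and the Gja5 probes on opposite sides of 0.

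Gja5, Cx40 of atria, the fast conduction system and arterial endothelium, differed little. Its brighter probe gave 7.69, 7.75 and 7.69 in DKO hearts and 7.64, 7.58, 7.66 and 7.61 in control hearts. The DKO hearts lay just above the control hearts, as the groups of 25.7% of genes do without overlap in one direction or the other. The log2 difference was only 0.09 ± 0.06 (SE; 95% interval -0.06 to 0.24; limma, adjusted p = 0.421). The dimmer probe, A_55_P2717381, which carries another transcript accession, gave 6.15, 5.73 and 5.68 in DKO hearts and 5.75, 5.78, 5.81 and 6.71 in control hearts (-0.16 ± 0.26, SE; adjusted p = 0.732). Its sign follows control replicate 4, without which the difference was 0.07. Endothelial markers, set beside it, were higher in 13 of 13 cases, where 11115 of all 23678 genes were higher. Their log2 differences ran from 0.04 to 0.34 with a median of 0.20. None passed the test (3 higher and 0 lower at an unadjusted p below 0.05 in limma). Their summed linear signal, in which the brightest, Fabp4, weighs most, was 127000 to 133000 in DKO and 105000 to 122000 in control hearts. Their part in the Gja5 values was not tested.

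Gjc1, Cx45 of nodal tissue and the early heart, gave 9.95, 9.98 and 10.06 in DKO hearts and 9.76, 9.86, 10.05 and 9.90 in control hearts. The groups overlap through control replicate 3 (log2 difference 0.10 ± 0.09, SE; 95% interval -0.10 to 0.31; limma, adjusted p = 0.494). Gja1 relative to Gja5 on the same array was lower by 0.36 on the log2 scale in DKO hearts, and relative to Gjc1 by 0.37 (exact permutation tests, two-sided, p = 0.114 and 0.0571; 0.114 and 0.0857 after adjustment over 3 pairs). With 0.0571 as the smallest p that 3 against 4 allows, these tests do not settle whether the connexins differ in response. Over all 7 members the median log2 difference was -0.12, with 5 lower and 2 higher, where the median of all genes was -0.02 with 12563 of 23678 lower.

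The profiles of the members across hearts were compared by description, over 7 arrays that share their normalization, and without a test. After the group means were removed, Hcn2 and Gja1 had the closest profiles (Pearson r = 0.81) and Hcn2 and Gjc1 came next (r = 0.63), while Scn4a and Gja5 ran opposite (r = -0.50). Hcn4 followed Gja1 at 0.57, Gja5 at 0.55 and Hcn2 at 0.29, and ran against Scn4b at -0.30. Among the 14720 named genes, those most like Hcn4 over the 7 arrays were Serhl (r = 0.9858), Tmem268 (0.9851) and Kcnj5 (0.9840). Kcnj5 encodes a subunit of the acetylcholine-activated potassium channel. It gave 11.70, 11.97 and 11.83 in DKO hearts, against 12.40, 12.41, 12.47 and 12.50 in control hearts, and DKO replicate 2 was the highest of its group there too. For Scn4b they were Eif1b (0.9738), Csnk1g2 (0.9502) and Guk1 (0.9462), and for Gja1 Them4 (0.9868), Otulinl (0.9863) and Ebag9 (0.9816). Otulinl was rated above background on 0 of 3 DKO and 3 of 4 control arrays. Such lists pick the highest of many values, and part of the likeness to Hcn4 is the group difference itself.

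Genes of the same families were then counted in 6 lists. For the calls in each list, the share over all 23678 genes was 2.41% higher and 2.29% lower in DKO. Of 8 other sodium channel subunits measured, 1 fell and 0 rose (limma, adjusted p below 0.05; 2 higher and 2 lower at an unadjusted p below 0.05), and the list's median log2 difference was 0.26. The summed linear signal, in which the brightest subunits weigh most, went the other way. It was 30500 to 38200 in DKO and 38000 to 48800 in control hearts. The subunit called lower was Scn10a, which encodes Nav1.8, best known from sensory neurons. It gave 6.98, 6.50 and 7.03 in DKO hearts, against 7.83, 7.94, 7.69 and 7.98 in control hearts. The groups stood well apart, and the log2 difference of -1.02 ± 0.15 (SE, n = 3 and 4; adjusted p = 0.0180 by limma) corresponds to 2.03-fold lower signal. A dimmer Scn10a probe gave -0.70 ± 0.15 (adjusted p = 0.0494 over probes) but was well above background on 1 DKO and 3 control arrays. The Scn10a call held in 5 of 7 fits with an array left out and reached an adjusted p of 0.0632 without control replicate 4 and 0.0595 without DKO replicate 1. With slide row as a term its adjusted p was 0.0619, while the difference was -0.80 within row 1 and -1.21 within row 2.

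Markers of nerve and Schwann cells were set beside Scn10a. Of 10, 8 were measured, 1 rose (Ngfr, the p75 neurotrophin receptor, 0.41 ± 0.08, SE) and 1 fell (Dbh, the noradrenaline-forming enzyme, -1.79 ± 0.13; adjusted p = 0.0368 and 0.00374 by limma). The list's median log2 difference was 0.07, with 5 markers higher and 3 lower, and at an unadjusted p below 0.05 with 3 higher and 2 lower. Their summed linear signal, to which Uchl1 and Dbh add most of the difference, was 4620 to 5180 in DKO and 6580 to 6930 in control hearts. The neuronal filament gene Prph did not pass the filter, and the part of these cells in the Scn10a values was not tested. Scn8a, encoding Nav1.6, gave 10.50, 10.48 and 10.50 in DKO hearts and 10.24, 10.20, 10.14 and 10.23 in control hearts (0.29 ± 0.07, SE; adjusted p = 0.0551 by limma).

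Among 13 measured partners of sodium channels 2 rose and 0 fell, with a median of -0.04, where 2.41% and 2.29% of all genes did. At an unadjusted p below 0.05 in limma, 2 were higher and 3 lower. Pkp2, plakophilin 2 of the desmosome, gave 14.36, 14.19 and 14.29 in DKO hearts, against 13.69, 13.88, 13.72 and 13.75 in control hearts (0.52 ± 0.08, SE; adjusted p = 0.0226 by limma). Slmap, a membrane-associated protein of the sarcolemma, gave 10.65, 10.34 and 10.37 in DKO hearts, against 9.73, 10.01, 9.77 and 9.96 in control hearts (0.58 ± 0.12, SE; adjusted p = 0.0410), although its other probe gave 0.08 ± 0.23 (SE). In both genes the DKO values lay wholly above the control values, as they did in 3117 of all 23678 genes. With an array left out Pkp2 passed in 2 of 7 fits and Slmap in 1, with adjusted p up to 0.0853 and 0.113, both without DKO replicate 1, and neither passed with slide row as a term (adjusted p = 0.0691 and 0.102).

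The intercalated disc, which seats Cx43 and the sodium channels at the cell ends, had 20 genes measured, of which 2 rose and 0 fell (median -0.03). At an unadjusted p below 0.05 in limma, 4 were higher and 2 lower. The genes called higher were Pkp2 again and Nrap, an actin-anchoring protein of the myofibril ends. Nrap gave 16.27, 16.22 and 16.04 in DKO hearts, against 15.52, 15.52, 15.60 and 15.50 in control hearts (0.65 ± 0.08, SE; adjusted p = 0.0123 by limma). Its DKO values lay clear of the controls, and the dimmer Nrap probe gave 0.39 ± 0.17 (adjusted p = 0.198 over probes). Nrap passed in 4 of 7 fits with an array left out, with an adjusted p of 0.0564 without DKO replicate 1, 0.0522 without DKO replicate 2 and 0.0540 without control replicate 4.

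Of 20 other connexins and pannexins on the array only 7 were measured and 0 passed (limma; 1 higher and 0 lower at an unadjusted p below 0.05), with a median of -0.07. The 2 with the smallest p were Panx1, a channel that releases ATP (0.32 ± 0.11, SE; adjusted p = 0.143), and Gja4, Cx37 of endothelium (0.22 ± 0.11, SE; adjusted p = 0.250). Among 9 measured other HCN subunits and partners 0 passed (2 higher and 1 lower at an unadjusted p below 0.05; median -0.08). The caveolin Cav3 of muscle gave 13.79, 13.87 and 13.80 in DKO hearts, against 14.12, 14.15, 14.12 and 14.07 in control hearts (-0.30 ± 0.07, SE; adjusted p = 0.0527), and Popdc3, of the cAMP-binding Popeye family, gave 0.39 ± 0.12 (SE; adjusted p = 0.106). Hcn3 was well above background on 1 DKO and 2 control arrays by its brightest kept probe.

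**Figure D4:**
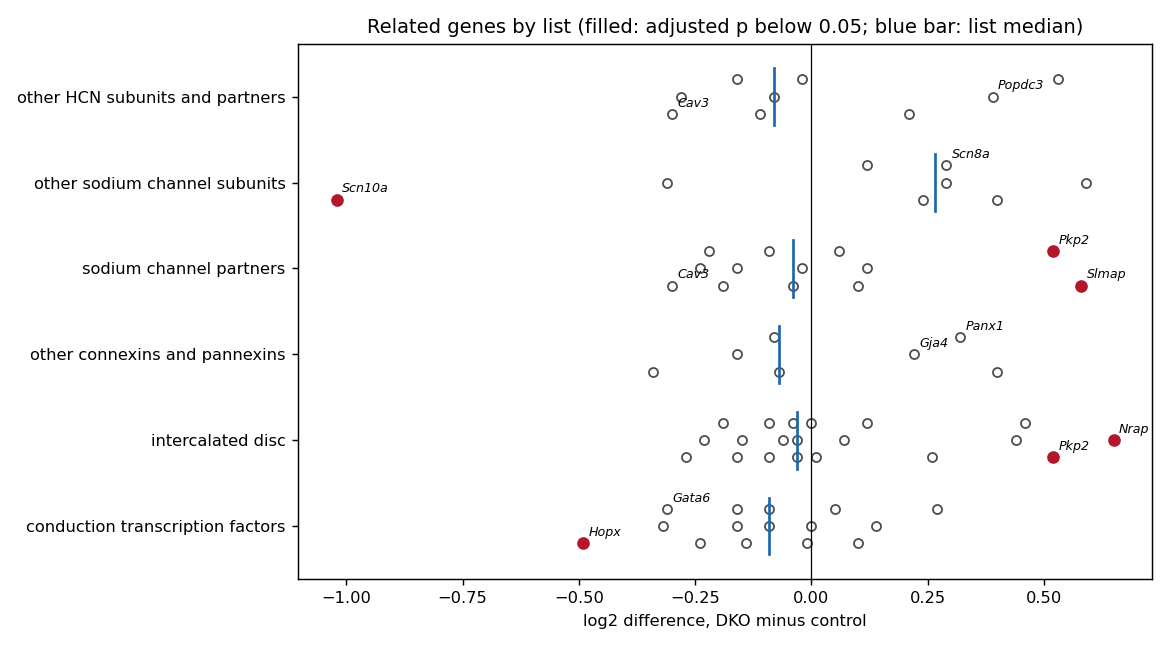
Log2 difference, DKO minus control, of every measured gene in 6 lists of related genes; filled points passed an adjusted p of 0.05 and blue bars are list medians. Scn10a at -1.02 and Hopx at -0.49 lie low, and Nrap, Slmap and Pkp2 lie between 0.52 and 0.65.

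Of 15 measured transcription factors of the conduction system and working myocardium 1 fell and 0 rose (limma; 0 higher and 4 lower at an unadjusted p below 0.05), with a median of -0.09. Hopx, a homeodomain-only cofactor, gave 13.68, 13.56 and 13.84 in DKO hearts, against 14.08, 14.21, 14.21 and 14.24 in control hearts (-0.49 ± 0.09, SE; adjusted p = 0.0338). The DKO values lay wholly below the control values, as they did in 12.5% of all genes. The call held in 2 of 7 fits with an array left out (adjusted p up to 0.108, without DKO replicate 1) and not with slide row as a term (0.0934). Gata6, a zinc-finger factor of heart muscle, gave -0.31 ± 0.09 (SE; adjusted p = 0.0883). The nodal factor Isl1 was not well above background on any array. The 15 measured factors, Tbx2, Tbx3, Tbx18 and Shox2 among them, were so on all 7.

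Atrial and pacemaker markers were set beside Hcn4, which is used as a nodal marker. Of 14, 11 were measured, with 8 lower and a median of -0.35. At an unadjusted p below 0.05 in limma, 2 were higher and 4 lower. Past the adjusted threshold 0 rose and 3 fell, where 2.41% and 2.29% of all genes did. The 3 were Kcnj3, the partner subunit of Kcnj5 (-0.89 ± 0.11, SE), Cacna1g, a T-type calcium channel (-0.76 ± 0.10), and Kcnj5 (-0.62 ± 0.08; adjusted p = 0.0122, 0.0130 and 0.0156 by limma). With an array left out the adjusted p of Kcnj5 reached 0.0618 without DKO replicate 1, 0.0557 without DKO replicate 3 and 0.0599 without control replicate 4, and it was 0.0543 with slide row as a term. That of Cacna1g reached 0.0618 without DKO replicate 1 and 0.0502 without control replicate 4, and that of Kcnj3 0.0502 without control replicate 4. The brightest marker, Nppa, the atrial natriuretic peptide, gave 17.50, 16.95 and 16.92 in DKO hearts, against 15.94, 16.24, 16.71 and 16.35 in control hearts (0.82 ± 0.21, SE; adjusted p = 0.0788 by limma). It carried most of the summed linear signal of 130000 to 192000 in DKO and 71800 to 116000 in control hearts. The atrial light chains Myl7 and Myl4, named after their values were seen, gave -1.09 ± 0.47 and -0.43 ± 0.15 (SE; adjusted p = 0.199 and 0.147). The other measured markers, named likewise, were mixed in direction. Nr2f2 gave 0.19 ± 0.07 and Cacna1d, detected on 1 DKO and 2 control arrays, 0.15 ± 0.91. Cntn2, Rgs6 and Gnao1 gave -0.35 ± 0.21, -0.17 ± 0.08 and -0.10 ± 0.09 (SE; none of these passed in limma). Myl7 was near background, detected on 1 DKO and 3 control arrays, Sln was detected on 1 of 7 arrays, and Bmp10 and Vsnl1 on none. The part of atrial or nodal tissue in the Hcn4 values was not tested.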

How the data were processed

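Cy3-labelled cRNA from 100 ng of total RNA per heart was hybridised to single-colour Agilent arrays of design 074809, per the labels' protocols and file headers, all on 1 slide read in 1 scan. The authors quantified the images with Feature Extraction 12.0.3.1 (protocol GE1_1200_Jun14; the headers name mm9 as build). The deposited processed signal is a linear, background-subtracted intensity, per the file headers. A second table deposited by the authors gives log2 values per probe. Set against the scanner signals over 30466 probes, it matched quantile-normalized log2 signals centred on each probe's median (r from 0.9991 to 0.9996). Each of its columns had a median of 0.00, and its software is not stated in the labels or headers.

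Control and outlier-flagged spots were left out. Log2 processed signals were shifted so that the 75th percentile of every array equalled the mean of 9.14, and replicate spots were averaged. Names came from matching each accession to a RefSeq table of GRCm38.p6 (32994 of 56605 matched a symbol). Those well above background on at least 3 of 7 arrays and without a missing value were kept, and a gene was represented by its brightest kept probe. The DKO minus control contrast was fitted in R 4.3.3 with limma 3.58.1 (1 term for group; residual degrees of freedom 5, prior 2.11), Benjamini-Hochberg adjusted over 23678 genes or 30466 probes. The fit was also run on simulated data with independent values for every gene and array. Those data hold no slide row or replicate effects, so they cannot show how such effects bear on the calls. Each array is a separate mouse; arrays of 1 group correlated at 0.984 to 0.994 and arrays of different groups at 0.978 to 0.990.

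Members and lists were chosen with earlier results of these data known. Named were the members, Akt1 and Akt2, the genes past the threshold in each list (or the 2 with the smallest p), the 3 genes most like Hcn4, Scn4b and Gja1, and exceptions marked in the text; called genes of the marker lists were named after their values were seen. The files hold no mean signal, so the normexp alternatives (offset 50) used the median signal. Other alternatives were quantile normalization, centring on detected probes, no filter, detection required on all 7 arrays, the deposited value table, averaging over a gene's probes, a trended robust prior, array weights, replicate number or slide row as a term, and each array left out. Results for some genes of the lists are not reported here.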

Additional observations from a re-analysis of the deposited data

Results flagged for a closer look

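Among 38 sets of control values examined (each member, many of the named genes, and each further probe of a member), 1 held a heart that stood apart by Dixon's ratio, a test that marks about 1 in 20 sets by chance. The dimmer Gja5 probe had a ratio of 0.93, above the critical value for 4 samples: control replicate 4 gave 6.71 where the other controls gave 5.75, 5.78 and 5.81. The brighter Gja5 probe gave 7.61 in that heart, within the range of its group.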

How the results depend on the processing

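Of the 7 members, Hcn2, Scn4b, Gja1 and Gjc1 kept their direction and stayed past no threshold under all 19 alternatives. The log2 difference of Hcn4 stayed negative throughout, but its call was lost with no filter (-0.54, adjusted p = 0.126), with the replicate number as a block (-0.53, 0.161) and with slide row as a term (-0.57, 0.0721), so that 0 member genes and 0 member probes were called there. With an array left out, the number of member genes called ran from 0 to 1, that of member probes from 0 to 1, and the Hcn4 difference from -0.64 to -0.49. Ranges over these fits were -0.23 to -0.05 for Hcn2, -0.51 to -0.16 for Scn4b, -0.16 to 0.00 for Scn4a, -0.35 to -0.20 for Gja1, 0.07 to 0.10 for Gja5 and 0.06 to 0.16 for Gjc1. Scn4a turned to 0.00 without DKO replicate 3, for its gene and its probe alike. Gja5 turned to -0.04 with the mean of its probes, and its dimmer probe turned to 0.07 with the replicate block and ran from -0.31 to 0.07 with an array left out, the positive value being that without control replicate 4. Csnk1g2 turned to 0.03 with normexp and 0.01 with normexp and quantile normalization. Of the related genes in the 6 lists 5 passed as reported, 3 with normexp, 0 with no filter, 10 with trended and robust variances, 8 with array weights, 0 with the replicate block, 1 with slide row as a term, and 0 to 6 with an array left out. Over all genes the calls numbered 1114 as reported, 555 with normexp, 720 with normexp and quantile normalization, 121 with no filter, 2028 with trended and robust variances, 1680 with array weights, 288 with slide row, 1 with the replicate block and 160 to 1127 with an array left out. Without a filter 45553 transcripts were tested, and under the replicate block control replicate 4 has no partner and degrees of freedom are spent. Why the calls changed was not tested for any setting. Deviations of same-numbered hearts from their group means correlated at 0.13, 0.01 and 0.03, and 1 of 3 DKO hearts was most like the control of its own number. With so few hearts these values do not settle whether replicate numbers pair them. Of the dim probes, that of Hcn4 had an SE of 0.09, the brighter Gja5 probe 0.06 and the dimmer Gja5 probe 0.26. The bright Hcn2 probe had an SE of 0.14. How dimness affects the precision was not tested.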
